A study of Rattus norvegicus with 4 samples.

Results

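Dopamine and adrenergic receptors were measured in cultured rat cortical neurons by 13 probe sets for 9 genes, 8 probe sets for the 5 dopamine receptor genes Drd1 to Drd5 and 5 for the adrenergic receptor genes Adra1b, Adra1d, Adra2a and Adrb1. The members were all probe sets that the platform annotation assigns to 1 of these 9 symbols, and they make up 13 of the 1263 probe sets on the array that are not Affymetrix controls, and 9 of the 720 genes that these name singly. Cortical neurons were taken from rat embryos at day 17 and grown for 14 days in Neurobasal medium with B27. Control cultures then received phosphate-buffered saline (PBS) for 4 h, and KCl cultures received 25 mM KCl for 4 h, which depolarizes the cell membrane. Each group has 2 arrays, and these are named by the numbers in their titles: control 1 and 2, KCl 1 and 2. The strain of rat and its sex are not given in the labels, and no label states that samples sharing a group were grown separately, so p-values cover the spread among these 4 arrays alone, and that spread may be technical.

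Catecholamine receptors are G protein-coupled receptors at the cell surface. The D1-class dopamine receptors (Drd1 and Drd5) and the β1 adrenergic receptor (Adrb1) couple to Gs and raise cyclic AMP, while the D2-class receptors (Drd2, Drd3 and Drd4) and the α2A receptor (Adra2a) couple to Gi and lower it. The α1 receptors (Adra1b and Adra1d) couple to Gq and activate phospholipase C. In the cortex, dopamine and noradrenaline arrive in fibres from cell bodies in the brainstem and midbrain, and a culture of cortex holds the receiving cells without those inputs.

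None of the 13 receptor probe sets passed the test for a change after KCl (limma, Benjamini-Hochberg adjusted p below 0.05 over 947 tested probe sets), while 10.8% of all tested probe sets did. An unadjusted p below 0.05 was found for 3 of the 13 (23.1%), against 25.6% of all tested, which puts the receptors near the background. These 3 were a probe set of Drd1 and a probe set of Adra1d, both with lower intensity after KCl, and the probe set of Adrb1, with higher intensity. The Adra1d probe set did not exceed 73.7, the highest background value on any array, so its p compares values no brighter than that level. Its 52.6 on control 2 did exceed the highest on that array, 36.9. The brighter probe set of Adra1d had a log2 change of −0.04 (limma unadjusted p = 0.87). The values of the KCl arrays and of the control arrays did not overlap for 6 of the 13 (46.2%), against 58.0% of all tested. The median log2 change was 0.01 for the receptors and −0.10 for all tested probe sets, and the median size of the change without its sign was 0.26 and 0.29. The smallest two-sided p that exact permutation of 2 against 2 arrays allows is 0.33, so every p here rests on variances that limma shares across probe sets.

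The promoters of the 2 receptor genes whose brightest probe sets had an unadjusted p below 0.05 are shown as the reference sequence for the values given below, although neither gene passed. They were searched for the cyclic AMP response element (CRE) and the AP-1 site, which are known as sites of factors that respond to depolarization. Any relation of a match to the values was not tested. The sequences come from RefSeq on build GRCr8 and run from 250 bases before to 50 bases after the annotated gene start, 5′ to 3′ on the gene's strand, with CRE cores in capitals. These positions belong to RefSeq, since probe sets carry none.
Drd1 (chr17:10546354-10546653, + strand): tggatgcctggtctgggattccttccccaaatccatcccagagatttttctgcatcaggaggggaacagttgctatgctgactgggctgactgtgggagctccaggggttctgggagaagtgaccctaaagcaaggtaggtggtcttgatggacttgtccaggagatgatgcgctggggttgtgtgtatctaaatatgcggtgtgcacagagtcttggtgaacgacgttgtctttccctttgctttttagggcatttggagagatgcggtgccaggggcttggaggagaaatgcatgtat
Adrb1 (chr1:265776853-265777152, + strand): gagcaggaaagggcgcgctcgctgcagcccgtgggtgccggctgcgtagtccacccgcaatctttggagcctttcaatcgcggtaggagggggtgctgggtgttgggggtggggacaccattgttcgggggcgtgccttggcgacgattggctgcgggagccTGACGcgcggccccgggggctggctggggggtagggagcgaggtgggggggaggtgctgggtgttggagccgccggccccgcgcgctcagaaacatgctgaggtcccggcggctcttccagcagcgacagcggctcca

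All 9 receptor genes had a promoter in the RefSeq table, and 3 motifs were searched on both strands of the 300-base windows. The CRE core TGACG, which is contained in the full CRE, was found in 2 of the 9, Adrb1 and Drd4, and in 21.2% of all 33469 promoters of that length. It lies at position −88 from the gene start in Adrb1 and at −142 in Drd4. The full CRE, TGACGTCA, was found in 0 of the 9 and in 1.83% of all promoters, and the AP-1 site TGANTCA in 0 of the 9 and in 7.33%. A match describes letters only, and where none is found these letters are not in this window. The base composition of the windows differed, with G and C making up 39.3% in Drd3, 51.7% in Drd1, 70.7% in Adrb1 and 72% in Adra1b, against a median of 51.7% over all promoters.

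Background was read in the intensity units of the array, from 19 controls for transcripts of bacteria and yeast, with a median of 9.05 and a highest value on any array of 73.7. By array the highest was 73.7 on control 1, 36.9 on control 2, 61.8 on KCl 1 and 65.9 on KCl 2. A probe set is called above background where both arrays of at least 1 group exceed 73.7. A value is called within background where it does not exceed 73.7, also on arrays whose own highest control was lower. By this rule 9 of the 13 receptor probe sets (69.2%) were above background, as were 744 of the 1263 non-control probe sets (58.9%). They covered 8 of the 9 genes, Drd1, Drd2, Drd3, Drd5, Adra1b, Adra1d, Adra2a and Adrb1, and Drd4 was the gene that did not reach it. On all 4 arrays 7 of the 13 exceeded it, as did 654 of the 1263 non-control probe sets. The 7 were 1 each for Drd1, Drd3, Drd5, Adra1b, Adra1d, Adra2a and Adrb1. A stricter level, chosen after seeing the data, is the highest value of the 15 opposite-strand control probe sets, which was 171.4. Above it lay 4 of the 13 receptor probe sets (30.8%), those of Drd3, Drd1, Adra1d and Adrb1, against 43% of the non-control probe sets, and for Adrb1 only the KCl arrays exceeded it. The probe set X53944_at of Drd3 was the 1 receptor probe set of 13 that exceeded 171.4 on all 4 arrays, against 461 of the 1263 non-control probe sets.

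**Figure D1:**
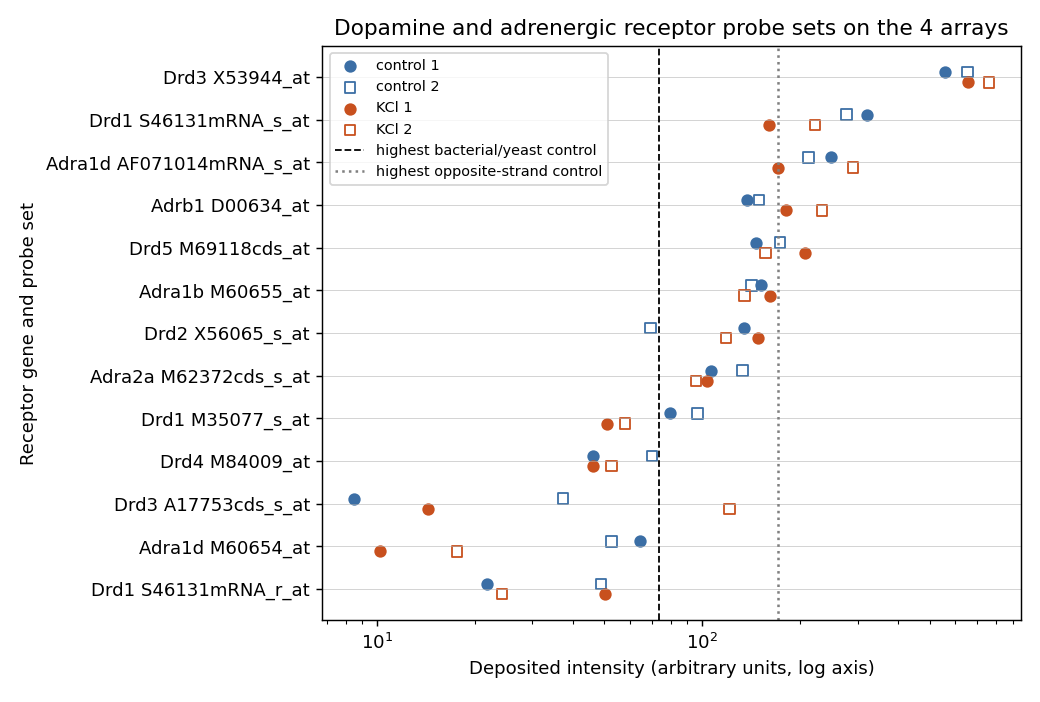
Deposited intensity (arbitrary units, log axis) of the 13 receptor probe sets on control 1, control 2, KCl 1 and KCl 2, ordered by mean, with the highest bacterial or yeast control (73.7, dashed) and the highest opposite-strand control (171.4, dotted). Drd3 X53944_at lies apart at the top, and the lower part of the order has values on both sides of the dashed line.

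In the order of mean intensity over the 4 arrays, Drd3 X53944_at came first with 657, followed by Drd1 S46131mRNA_s_at with 246, Adra1d AF071014mRNA_s_at with 231, Adrb1 with 175, Drd5 with 171 and Adra1b with 147. Drd2 with 118, Adra2a with 110 and Drd1 M35077_s_at with 71.1 came next, and the last places were Drd4 with 53.7, Drd3 A17753cds_s_at with 45.3 and, with 36.2 each, Drd1 S46131mRNA_r_at and Adra1d M60654_at. Probe sets differ in how strongly they bind their target, so this is an order of signal and not of transcript number. Only the first step of the order was free of overlap: the lowest value of Drd3 X53944_at was 558.4 and the highest of Drd1 S46131mRNA_s_at was 321.9. For each of the other 11 neighbouring pairs the ranges over the 4 arrays overlapped. Among all non-control probe sets, the mean percentile of the receptors ran from 25.3 for Adra1d M60654_at to 80.8 for Drd3 X53944_at. The median intensity of the 13 was 118, against 116 over all non-control probe sets and 209 over the tested ones.

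Among the Gs-coupled receptors, Drd1, the main D1-class receptor of the forebrain, was measured by 3 probe sets that gave unlike signals. S46131mRNA_s_at read 321.9 on control 1, 278.0 on control 2, 160.6 on KCl 1 and 222.3 on KCl 2. Both KCl arrays lay below both control arrays, and KCl 1 was the lowest. Its mean intensity was 300 ± 31 in controls and 191 ± 44 after KCl (SD, n = 2 arrays per group). The log2 change was −0.66 ± 0.21 (SE), with a 95% interval of −1.15 to −0.17 (limma unadjusted p = 0.014, adjusted p = 0.092), so it did not pass. Without KCl 2, where the control pair alone gives the spread, the log2 change was −0.90 and passed (limma adjusted p = 0.0028, range over all alternatives 0.0028 to 0.38), and without KCl 1 it was −0.43.

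The second probe set of Drd1, M35077_s_at, read 79.3 and 96.6 in controls and 50.8 and 57.9 after KCl, so the groups again did not overlap, and the KCl values were within background. The control mean was 1.19 times the highest background value. That follows from both control values exceeding background, so it sets no lower limit on the change. The log2 change of −0.69 ± 0.35 did not pass (limma unadjusted p = 0.086, adjusted p = 0.25). Its 95% interval of −1.50 to 0.12 included no change. The third, S46131mRNA_r_at, derives from the same sequence record as the first and lay within background on all 4 arrays, with 21.8 and 48.8 in controls and 50.2 and 24.2 after KCl. Its groups overlapped, and its log2 change was 0.10 ± 0.70. By Affymetrix naming, _s_at marks probe sets whose probes match more than 1 transcript record and _r_at those for which probe selection rules were relaxed. Whether the 3 probe sets differ from each other in their change was not tested.

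Drd5, the other D1-class receptor, read 146.2 on control 1, 173.4 on control 2, 206.6 on KCl 1 and 156.4 on KCl 2, all above background. The groups overlapped and the log2 change was 0.18 ± 0.23, with a 95% interval of −0.36 to 0.71 (limma adjusted p = 0.68). Adrb1, the β1 receptor for noradrenaline and adrenaline, read 137.0 and 149.3 in controls and 180.3 and 233.4 after KCl. Both KCl arrays lay above both control arrays, and the KCl pair was further apart than the control pair. Its mean was 143 ± 8.7 in controls and 207 ± 38 after KCl (SD, n = 2 arrays per group). The log2 change was 0.52 ± 0.22, with a 95% interval of 0.01 to 1.03. It did not pass (limma unadjusted p = 0.046, adjusted p = 0.19, and 0.12 to 0.53 over the alternatives). The log2 change kept its sign without any 1 array, from 0.33 without KCl 2 to 0.71 without KCl 1.

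Among the Gi-coupled receptors, Drd3, a D2-class receptor known best from limbic regions, had the brightest and 1 of the dimmest probe sets of the family. X53944_at read 558.4 and 653.0 in controls and 656.1 and 759.9 after KCl. The groups did not overlap, although control 2 and KCl 1 were almost equal. The means were 606 ± 67 and 708 ± 73, and the log2 change of 0.23 ± 0.15 did not pass (95% interval −0.11 to 0.56, limma adjusted p = 0.38). A17753cds_s_at read 8.5 on control 1, 37.3 on control 2, 14.3 on KCl 1 and 121.1 on KCl 2, so 1 of the 4 arrays was above background. Its groups overlapped and its log2 change of 1.22 ± 1.15 rests on KCl 2, since without that array it was −0.32. The 2 probe sets annotated to Drd3 thus gave opposite answers on whether the receptor was above background, and which of them reads the transcript was not tested.

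Drd2, the D2-class receptor that many antipsychotic drugs block, read 134.1 on control 1, 69.3 on control 2, 148.8 on KCl 1 and 118.3 on KCl 2. Only control 2 lay within background by the level of 73.7, and its value still exceeded the highest control on that array, 36.9. The groups overlapped, and the log2 change was 0.46 ± 0.35 (95% interval −0.34 to 1.27, limma adjusted p = 0.46). Without control 2 it was −0.02 and without control 1 it was 0.94, so the value depended on which control array was kept. Drd4, a D2-class receptor known from prefrontal cortex, read 46.2 and 70.1 in controls and 46.1 and 52.5 after KCl. All 4 values were within background by the level of 73.7, and its log2 change was −0.21 ± 0.44. All 4 exceeded 42.1, the 95th percentile of the background values, and control 2 exceeded the highest control on its own array, 36.9. Adra2a, an α2 receptor found both on noradrenaline terminals and on receiving neurons, read 106.5 and 132.7 in controls and 103.6 and 95.7 after KCl. The groups did not overlap, but the lower control and the higher KCl value were closer than the controls were to each other, and the log2 change was −0.26 ± 0.27 (95% interval −0.87 to 0.36, limma adjusted p = 0.6).

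Among the Gq-coupled receptors, Adra1b had the log2 change closest to 0 of the 13 probe sets. It read 151.4 and 141.6 in controls and 161.8 and 135.0 after KCl, with means of 146 ± 6.9 and 148 ± 19. The KCl values lay on either side of the controls, and the log2 change was 0.01 ± 0.23, with a 95% interval of −0.51 to 0.53. Adra1d, the other α1 receptor, was measured by 2 probe sets. AF071014mRNA_s_at read 249.2 on control 1, 211.7 on control 2, 170.8 on KCl 1 and 290.5 on KCl 2. The lowest and the highest of these were both KCl arrays, and the log2 change of −0.04 ± 0.26 became 0.34 without KCl 1 and −0.43 without KCl 2. M60654_at read 64.3 and 52.6 in controls and 10.2 and 17.6 after KCl. The groups did not overlap, but all 4 values were within background, so no fold is given for its log2 change of −2.12 ± 0.71 (limma unadjusted p = 0.017, adjusted p = 0.1). Whether the 2 probe sets of Adra1d differ in their change was not tested.

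**Figure D2:**
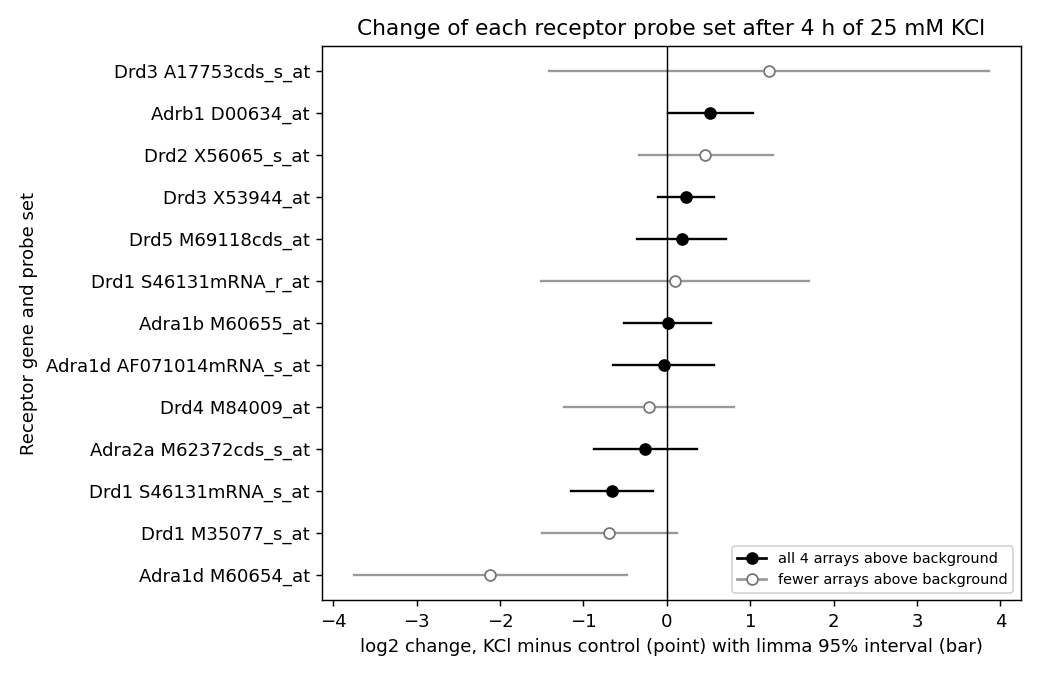
log2 change (KCl minus control, horizontal axis) of each receptor probe set with limma's 95% interval; filled points were above background on all 4 arrays. Intervals of the 7 filled points lie between −1.15 and 1.03, and those of the 6 open points between −3.75 and 3.86.

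Replicate ratios of the receptors spanned a narrower range for probe sets above background on all 4 arrays. A single low array is enough to place a probe set outside that group, so the grouping itself fixes part of this contrast. For the 7 probe sets above background on all 4 arrays, the ratio of control 1 to control 2 ran from 0.80 to 1.18 and that of KCl 1 to KCl 2 from 0.59 to 1.32. For the other 6 these ratios ran from 0.23 to 1.94 and from 0.12 to 2.07. The SE of the log2 change was 0.15 to 0.27 in the first set and 0.35 to 1.15 in the second, against a median of 0.21 over all tested probe sets. Arrays of 1 group differed by a median of 0.28 (control pair) and 0.37 (KCl pair) in log2 for the receptors, against 0.22 and 0.21 for all tested probe sets. Between a control and a KCl array the median for the receptors was 0.22 to 0.50, with the lowest for control 1 against KCl 2, below either pair within a group. A p that misses the threshold does not show that a receptor was unchanged, and the intervals give the sizes that remain compatible with these arrays.

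**Figure D3:**
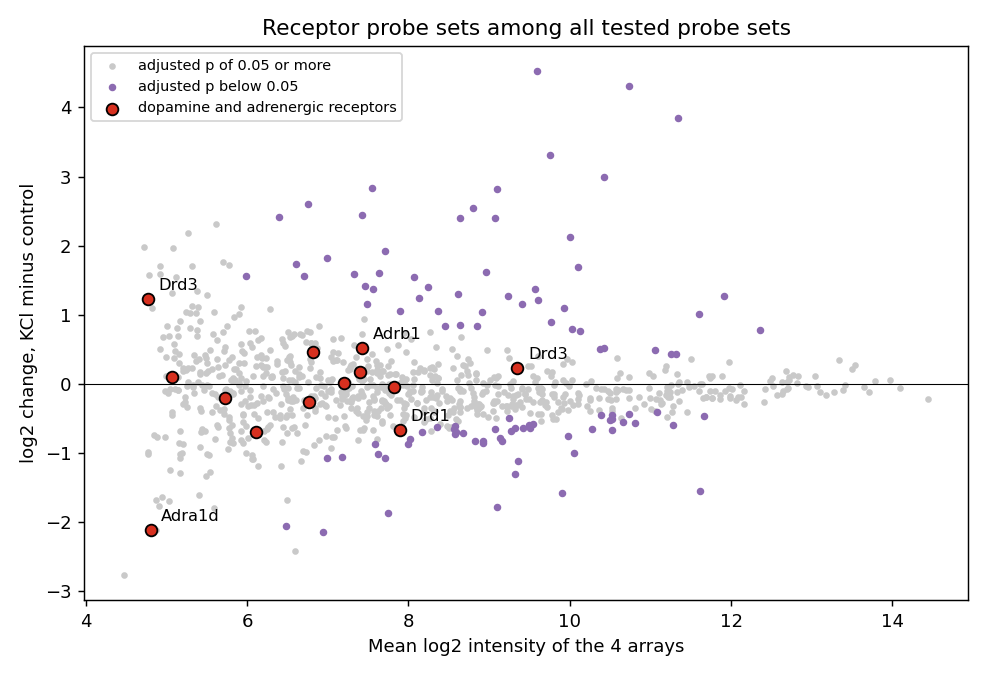
log2 change (KCl minus control) against mean log2 intensity for the 947 tested probe sets, with those at an adjusted p below 0.05 in purple and the 13 receptor probe sets in red. The receptors lie in the dim and middle range and none is among the 102 purple points.

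By the coupling of the receptor, log2 changes were above 0 for 3 of 5 Gs-coupled, 3 of 5 Gi-coupled and 1 of 3 Gq-coupled probe sets, and 0 of each passed in limma, with 2, 0 and 1 at an unadjusted p below 0.05, the last being the Adra1d probe set within background. These counts include probe sets not above background, and over all tested probe sets 376 of 947 had a log2 change above 0. The profile of Drd1 S46131mRNA_s_at over the 4 arrays, as log2 intensities centred on their mean, was closest to a probe set of Mapk14, which encodes the kinase p38α, at a Euclidean distance of 0.06. A probe set of Grin1, which encodes the obligatory NMDA receptor subunit, followed at 0.06, and one of Bcl2l1, which encodes a survival protein, at 0.09. The median distance over 850 probe sets of other genes was 0.77. The log2 changes of these nearest probe sets were −0.62, −0.61 and −0.73, which the choice by nearness fixes. Other tested probe sets of the same genes ran from −1.12 to −0.15 for Mapk14, −0.41 to 0.13 for Grin1 and −0.61 to −0.33 for Bcl2l1. The nearest probe set of Mapk14 was within background on KCl 1, and this likeness is a description over 4 arrays.

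**Figure D4:**
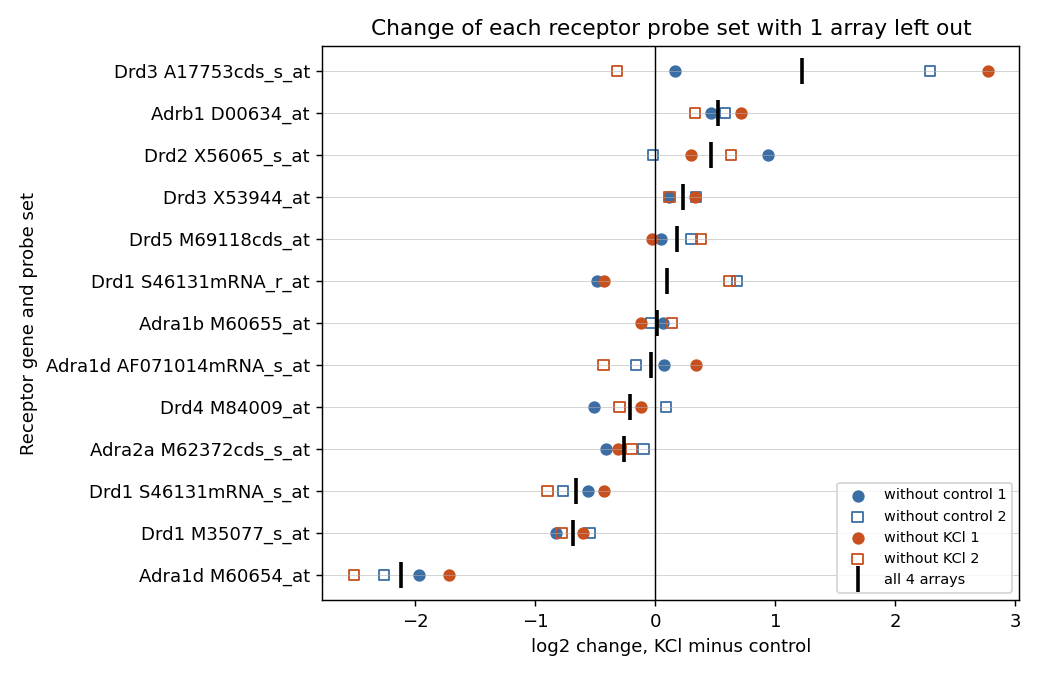
log2 change (KCl minus control) of each receptor probe set with all 4 arrays (black bar) and with 1 array left out (symbols). The symbols of Drd1 S46131mRNA_s_at and M35077_s_at, Adra1d M60654_at and Adra2a stay below 0 and those of Adrb1 and Drd3 X53944_at above 0, while the other 7 cross it.

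The wider catecholamine pathway was read from a list of 75 genes, of which 26 were on the array, 20 were above background and 22 were bright enough to be tested. In limma 0 of these 22 rose and 0 fell, judged by the brightest probe set of each gene, where 10.8% of all tested probe sets passed and 4 of the 22 had an unadjusted p below 0.05 (18.2%), against 25.6% of all tested. The median log2 change of the 22 was −0.13, beside −0.10 over all tested probe sets. Of 5 markers of cells that make catecholamines, 3 did not count as above background. Dbh, which makes noradrenaline from dopamine, read 3.0 to 8.4 and the vesicular monoamine transporter gene Slc18a2 read 9.0 to 19.0 over the 4 arrays, so both stayed within background on every array. Ddc, which encodes the decarboxylase that makes dopamine, exceeded 73.7 on control 2 alone, with 79.4, and so did not count as above background, and its other probe set read 11.7 to 20.3. Th, the rate-limiting enzyme of catecholamine synthesis, read 172.9 and 140.0 in controls and 129.4 and 161.7 after KCl, and the dopamine transporter gene Slc6a3 read 90.7 and 61.3, then 102.6 and 146.6. The groups overlapped for Th and did not for Slc6a3, whose log2 change of 0.72 ± 0.33 did not pass (limma adjusted p = 0.22), and the other probe set of Slc6a3 was within background on all 4 arrays, with 34.1 to 58.2.

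Of the other adrenergic receptors, Adra2b, Adra2c and Adrb3 lay above background and below 171.4 on all 4 arrays, with log2 changes of 0.06 ± 0.29, −0.35 ± 0.28 and 0.07 ± 0.30, and Adra1a read 11.7 to 43.4, within background. Signal proteins downstream of the receptors were read in the same way. Gnas, which encodes the Gs α subunit, had a mean of 11006 ± 1834 in controls and 10818 ± 375 after KCl, and Gnao1, which encodes the Go α subunit, 5637 ± 134 and 5913 ± 1417 (SD, n = 2 arrays per group). Their log2 changes were −0.02 ± 0.13 and 0.05 ± 0.15. Maoa, the monoamine oxidase that breaks down noradrenaline, had a log2 change of 0.02 ± 0.14, and its other 2 probe sets had 0.11 and 0.04. Gnas, Gnao1 and Maoa are named after their values were seen. Gnb1, which encodes a G protein β subunit, had a log2 change of 0.20 ± 0.11 that did not pass (limma adjusted p = 0.29), and its other 4 probe sets had 0.06 to 0.38.

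By the brightest probe set, the 4 pathway genes with an unadjusted p below 0.05 had log2 changes below 0, and none passed. They were the receptor kinase genes Grk2 and Grk3, whose products start the desensitization of activated receptors, the phospholipase gene Plcb1, and Prkar2b, which encodes a regulatory subunit of the cyclic AMP-dependent kinase. Grk2 read 315.8 and 240.2 in controls and 192.1 and 171.3 after KCl, with a log2 change of −0.60 ± 0.21 (limma adjusted p = 0.11). Grk3 read 162.0 and 138.6, then 47.0 and 101.0, with −1.12 ± 0.38 (limma adjusted p = 0.11), and its value on KCl 1 was within background. Plcb1 had a log2 change of −0.40 ± 0.14, with −0.27 on its other probe set, and Prkar2b had −0.49 ± 0.18 (limma adjusted p = 0.13 for both). Prkar2b, Plcb1 and Grk3 passed without KCl 2, where the spread comes from the control pair alone and calls over all probe sets rise to 178. Less bright probe sets with an unadjusted p below 0.05 went both ways: rc_AI227660_s_at of Gnb1 had 0.38 ± 0.12, L27059_s_at of Pde4d 1.71 ± 0.71 and M25348_s_at of Pde4a −0.99 ± 0.31, and none of these 3 passed (limma adjusted p = 0.082, 0.18 and 0.08). The last 2 encode phosphodiesterases that break down cyclic AMP. Arrb2, which encodes β-arrestin 2, a protein that uncouples phosphorylated receptors, had 5 probe sets, all with log2 changes below 0. The brightest had −0.21 ± 0.16, and 1 less bright set, rc_AA964003_s_at, passed with −0.67 ± 0.18, from 288.1 and 296.5 to 187.3 and 180.7 (limma adjusted p = 0.047). It is named after its values were seen.

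**Figure D5:**
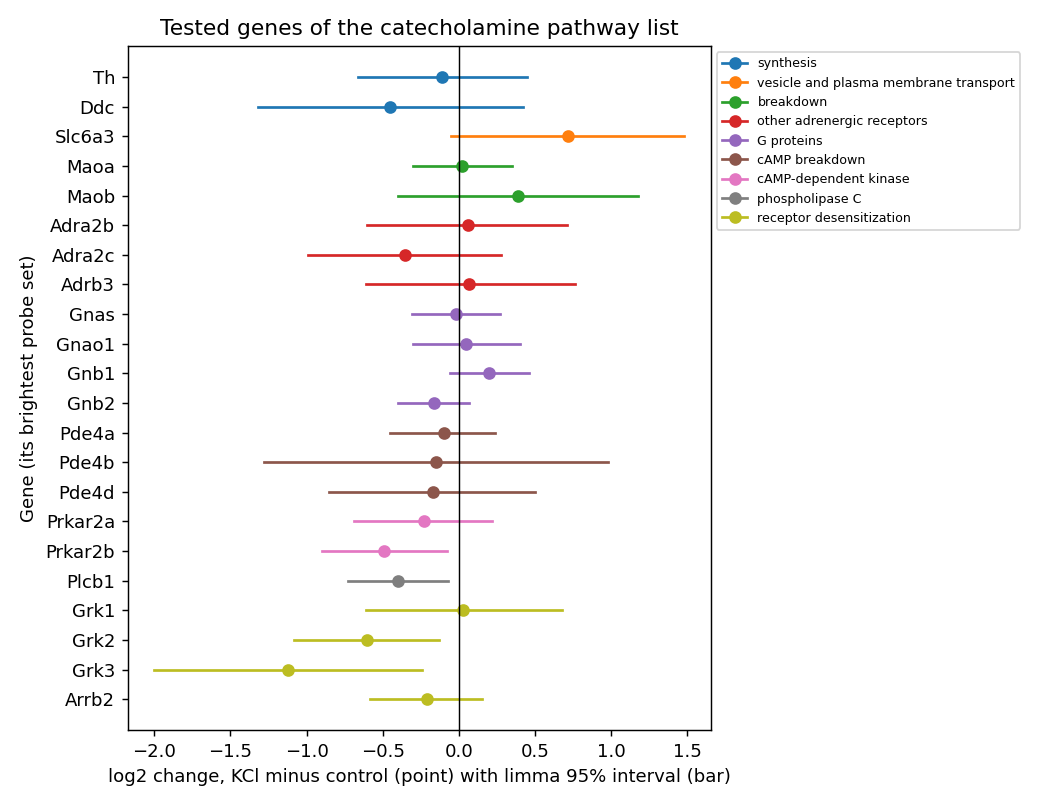
log2 change (KCl minus control) with limma's 95% interval for the 22 tested genes of the catecholamine pathway list, each by its brightest probe set and coloured by role. The intervals of Grk2, Grk3, Plcb1 and Prkar2b lie below 0 and none of the 22 passed after adjustment.

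The labels were in conflict on 1 point. The description field of all 4 samples, KCl included, speaks of an unstimulated state, so groups were taken from titles and treatment protocols, and Fos, an early response gene, read 719.5 and 646.2 on the arrays titled control and 9744.5 and 9883.3 on those titled KCl. Log2 intensities of 2 arrays of 1 group had a Pearson r of 0.97 across tested probe sets, which are not independent replicates. Neuron markers were above background for 9 of 10 genes on the array, with Camk2a within it, and 1 of 10, Snap25, was called higher after KCl. The summed intensity of the neuron markers was 31483 and 32805 in controls and 30040 and 30393 after KCl. Astrocyte markers were also present, with 6 of 7 genes above background, Slc1a2 within it, and 6 of 7 called higher after KCl, against 52 of all 947 tested probe sets. Their summed intensity was 5484 and 5220 in controls and 12551 and 9974 after KCl. Oligodendrocyte markers were above background for 2 of 4 genes (Mbp and Mog within it) with sums of 528 to 609, both microglial markers on the array were within background, and the 1 endothelial marker, Vcam1, summed to 77 to 131. For the hexokinase control transcript, the 3′ to 5′ signal ratio read 2.25 and 2.00 in controls, then 2.49 and 2.67 after KCl, while that of Gapdh lay between 1.17 and 1.23 and that of β-actin between 1.08 and 1.12 with no separation of the groups. The part of the astrocyte signal and of this ratio in the receptor values was not tested, and with bulk RNA fewer cells of a type and less RNA per cell cannot be told apart.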

How the data were processed

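The samples are 4 Affymetrix neurobiology arrays, 2 control and 2 KCl. Per the labels' protocols, the authors made biotin-labelled cRNA from 5 µg of total RNA. The authors deposited 1 linear intensity per probe set and array, in arbitrary units. How probes were combined and scaled is not given in the sources used here, and the 2% trimmed means of the arrays, 477.2 to 483.9, show that they had been brought to 1 level.

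Intensities were taken to log2 as deposited. Of 1322 probe sets, 59 Affymetrix controls were left out, as were the dimmest 25% of the rest (316, means up to 33.2). This left 947, among them all 13 receptor probe sets. Symbols come from the platform annotation (1 symbol for 1137 probe sets, several for 8, none for 118), and the gene identifiers of all 13 matched the same symbols in RefSeq's table. KCl was compared with control by limma 3.58.1 in R 4.3.3 (lmFit, eBayes with an intensity trend, two-sided, Benjamini-Hochberg over 947, threshold 0.05). The fit was also run on simulated data whose noise was drawn to follow the intensity trend, so that run does not test the trend setting. Precision is limited by the number of arrays. The members, lists, naming rule (all receptor probe sets, pathway genes that passed or had the smallest p, and the 3 nearest profiles) and alternatives were chosen with earlier results of these data known.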

Additional observations from a re-analysis of the deposited data

How the results depend on the processing

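No receptor probe set passed under 12 of the 14 alternatives. Drd1 S46131mRNA_s_at, 1 probe set, passed without KCl 2, and it passed at the looser threshold of an adjusted p below 0.10 (adjusted p = 0.092). With 1 array left out in turn, receptor probe sets called numbered 0 to 1, pathway genes called 0 to 3, and all probe sets called 11 to 178, against 102 with all arrays (14 without control 1, 11 without control 2, 178 without KCl 2). All probe sets called were 21 when eBayes had no intensity trend. The numbers in the titles did not pair the arrays by the data (r = −0.03 between the differences of the control pair and of the KCl pair). With a replicate block 50 probe sets and 0 receptors were called in limma. An unadjusted p below 0.05 was then found for 2 of the 13 receptor probe sets and for 209 of all 947 tested. Of 165 log2 changes of receptor probe sets under the alternatives, 154 kept their direction and their side of the threshold, 1 newly passed and 10 changed sign, all 10 with an array left out. The ranges with 1 array left out were −0.32 to 2.77 for Drd3 A17753cds_s_at, −0.43 to 0.34 for Adra1d AF071014mRNA_s_at, −0.12 to 0.14 for Adra1b, −0.03 to 0.38 for Drd5, −0.51 to 0.09 for Drd4, −0.49 to 0.68 for Drd1 S46131mRNA_r_at, −0.02 to 0.94 for Drd2 and −0.90 to −0.43 for Drd1 S46131mRNA_s_at. With the dimmest 40% left out, 9 of the 13 were tested. Genes above background numbered 5 at 2 times the highest background value (147), which left out Drd2, Adra1b and Adra2a, and 4 at the level of the opposite-strand controls, and 7 to 9 under the other rules. The count of 9 came at the 95th percentile of the background values (42.1), where Drd4 was added. With other settings than leaving out an array, the log2 change of Adra1d M60654_at ran from −2.12 to −1.32, the smallest with a pseudocount of 16. Signal over background limits what can be said of the 6 probe sets that did not exceed it on all 4 arrays.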
